A study of Homo sapiens with 8 samples.

Results

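Aminoacyl-tRNA synthetases join each amino acid to its tRNA and so supply the ribosome with charged tRNAs. Most amino acids are served by a pair of nuclear genes, of which the product of 1 works in the cytosol and the product of the other, usually named with a final 2, is imported into mitochondria. GARS and KARS are known to make forms for both places from the same gene, and QARS makes the cytosolic glutaminyl enzyme, for which no mitochondrial partner is needed because mitochondria build glutaminyl-tRNA by another route. In the cytosol several of the enzymes sit in a multisynthetase complex held together by the scaffold proteins AIMP1, AIMP2 and EEF1E1. The family was taken by name as 39 genes, and all 39 were among the 10105 genes of the count table. They comprised 17 cytosolic enzymes, 16 mitochondrial enzymes, the 3 genes GARS, KARS and QARS, and the 3 scaffold proteins.

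The cells were HEK293T, a line from human embryonic kidney that grows in culture and carries the SV40 large T antigen. WT cells were compared with XRN1-null cells, in which CRISPR/Cas9 editing had disrupted the gene for XRN1, the main cytoplasmic 5′-to-3′ exonuclease that degrades decapped mRNA. No agent was added, and both genotypes were harvested 24 h after plating on 15 cm dishes. Each genotype had 2 biological replicates by RNA-Seq, which measures mRNA levels, and 2 by Ribo-Seq, which counts ribosome-protected fragments (RPF). Whether the XRN1-null line descends from a single clone is not given in the sources used here, and with 1 edited line its own history and the loss of XRN1 cannot be told apart.

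CPM and RPKM are shares of a library, so a change common to all mRNAs per cell cannot be seen in them. Total counts ran from 33757487 to 38145433 in the RNA-Seq libraries and from 1921641 to 4399542 in the Ribo-Seq libraries, and the lowest member had at least 375 and 18 counts in them. The edited XRN1 transcript stood higher in mRNA and lower in footprints in the edited cells: the 2 WT libraries held 33.5 and 33.0 CPM (counts scaled to library size) of XRN1 mRNA and the 2 XRN1-null libraries 282 and 253 CPM, whereas RPF stood at 34.4 and 49.8 CPM in WT and at 22.6 and 18.4 CPM in XRN1-null cells. The RPF change of -1.08 missed the threshold used here (FDR 0.00641), while the log2 TE of XRN1 fell by 4.09 (SE 0.22, edgeR quasi-likelihood FDR 1.66e-06), TE being translational efficiency, the RPF level over the mRNA level. Of 8 markers of HEK293T cells, 7 were in the table and PAX2 was not, and none of the 5 markers of leukocytes, hepatocytes, erythroid or endothelial cells was in it. The 2 WT libraries of each assay differed more from each other than the 2 XRN1-null libraries did, with a chi-square per degree of freedom over genes of 24.0 against 3.83 in RNA-Seq and of 7.73 against 2.01 in Ribo-Seq.

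In WT cells the cytosolic enzymes were more abundant and more densely covered by ribosomes than the mitochondrial ones. The median mRNA level was 42.9 RPKM (reads scaled to gene width and library size) over the 17 cytosolic enzymes, with a range of 19.7 to 133.5 RPKM, and 16.5 RPKM over the 16 mitochondrial enzymes, with a range of 5.18 to 97.5 RPKM. The median over all genes was 15.0 RPKM. In a comparison within amino acids, the cytosolic enzyme had the higher mRNA level in 16 of 17 pairs, and the exception was cysteine, where CARS stood at 0.896 times the level of CARS2. Here and below, EPRS was paired with both EARS2 and PARS2, and FARS2 with both FARSA and FARSB, so the 17 pairs are not independent. The widest ratio was that of FARSA, a subunit of the cytosolic phenylalanyl enzyme, to FARS2, at 17.2, and the narrowest above 1 was that of IARS to IARS2, at 1.19. IARS2, which charges isoleucine in mitochondria, was the most abundant mitochondrial member and stood among the cytosolic levels.

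**Figure D1:**
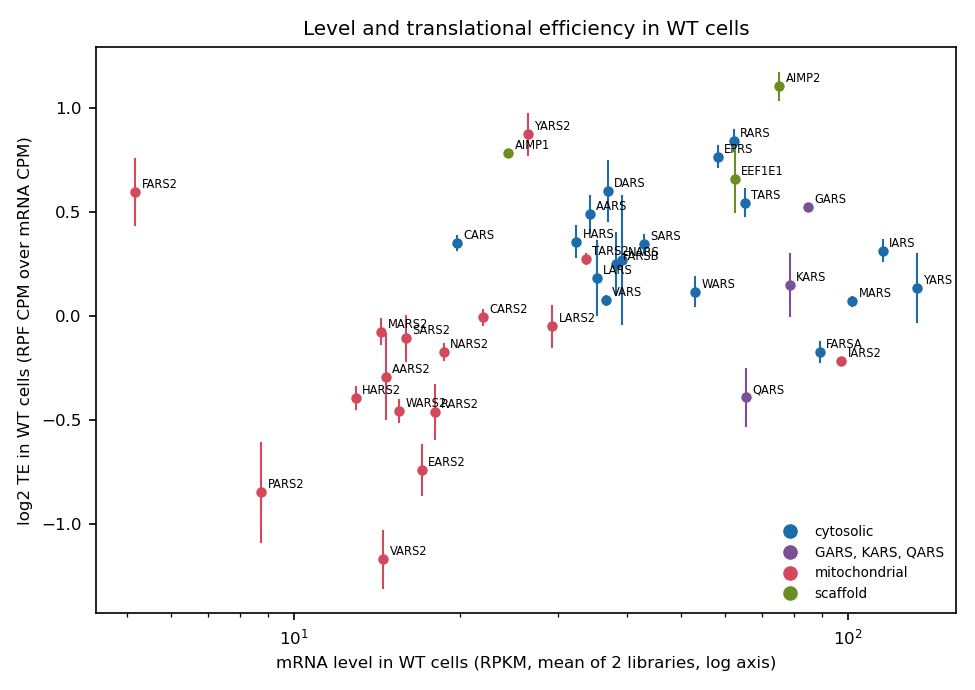
mRNA level (RPKM, mean of 2 WT RNA-Seq libraries, log axis) against log2 TE in WT cells for the 39 members; points are means and vertical lines join the values of replicates 1 and 2. Cytosolic enzymes lie to the upper right of most mitochondrial enzymes, YARS2 and FARS2 stand above the other mitochondrial enzymes in TE, and VARS2 has the lowest TE.

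The median log2 TE in WT cells was 0.31 for the cytosolic enzymes, -0.20 for the mitochondrial enzymes and 0.78 for the scaffold proteins, beside -0.29 for all genes. The difference of 0.509 between the first 2 medians is given as a description, since the members are not replicates. Footprints lie on coding sequence whereas mRNA reads cover the whole transcript, and with footprints per coding length the difference was 0.417 with mRNA per gene width of the deposited table and 0.223 with mRNA per annotated transcript length. The order of single members depended on this choice. On the scale used from here on, with no length term, the highest cytosolic log2 TE belonged to RARS, the arginyl enzyme, at 0.79 in WT replicate 1 and 0.89 in WT replicate 2. EPRS, which joins glutamyl and prolyl activities in 1 protein, had 0.72 and 0.82, and DARS, the aspartyl enzyme, had 0.45 and 0.74. The spans of EPRS overlapped those of RARS and DARS, so the order is not fixed by these libraries. At the low end FARSA had a log2 TE of -0.12 and -0.22, MARS, the methionyl enzyme, 0.09 and 0.05, and VARS, the valyl enzyme, 0.10 and 0.05. MARS and VARS differed by less than their replicates, and FARSA was below both in each WT replicate. Under the coding length, the highest were SARS (2.01) and DARS (1.67) by deposited width but FARSB (2.18) and DARS (1.64) by transcript length, so the top of the order is not settled. FARSA, MARS and VARS were the lowest 3 under each.

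Among the mitochondrial enzymes the range of TE was wider. YARS2, the tyrosyl enzyme, had a log2 TE of 0.97 and 0.78 in the 2 WT replicates, FARS2, the phenylalanyl enzyme, 0.76 and 0.44, and TARS2, the threonyl enzyme, 0.25 and 0.30. The values of YARS2 and FARS2 lay within 1 replicate difference of each other. The lowest was VARS2, the mitochondrial valyl enzyme, at -1.31 and -1.03, followed by PARS2, the prolyl enzyme, at -1.09 and -0.61 and EARS2, the glutamyl enzyme, at -0.62 and -0.86. PARS2 rested on few footprints, 9.38 and 13.8 CPM in WT, and its span overlapped those of both neighbours. VARS2 and PARS2 were the lowest also per coding length, at -0.94 and -0.10 by deposited width and in the same order by transcript length, whereas EARS2 was not among the low ones there, at 0.68 and 0.99. By pairs, and with no length term, the cytosolic enzyme had the higher TE in 14 of 17, and the exceptions were FARSA and FARSB against FARS2 and YARS against YARS2. Per coding length the count was 13 of 17 by deposited width and 12 of 17 by transcript length.

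With no length term, RARS had a log2 TE of 1.26 and 1.12 in the 2 XRN1-null replicates, EPRS 0.90 and 0.95 and DARS 0.90 and 0.78, and YARS2 had 0.85 and 0.91. FARSA had -0.39 and -0.26 and MARS -0.06 and -0.06, while VARS stood below both in each XRN1-null replicate. FARS2 spread from -0.02 to 0.37 and PARS2 from 0.02 to -0.56, and these are the 2 mitochondrial members with the fewest footprints. TARS2 had 0.18 and 0.27 and EARS2 -0.85 and -1.08. Of the enzymes at the ends of the range in WT cells, only VARS2 was called in TE.

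In XRN1-null cells 7 of 39 members were upregulated in mRNA and 7 were downregulated at an FDR below 0.005, against a background of 22.9% of all genes called higher and 23.2% called lower. The share of members called in each direction was thus no larger than that of all genes. The median log2 change was 0.16 for the cytosolic enzymes and 0.05 for the mitochondrial enzymes, beside -0.01 for all genes. Without WT replicate 1 the medians were 0.06 and -0.01, and without WT replicate 2 they were 0.27 and 0.13. Of the 17 cytosolic enzymes 2 rose and 0 fell, of the 16 mitochondrial enzymes 4 rose and 4 fell, and of the 3 scaffold proteins 0 rose and 2 fell. QARS rose, KARS fell and GARS passed in neither direction. Differences between these groups in the number of calls were not tested. Over the 4 ways of leaving out 1 RNA-Seq library, the number of members called higher ran from 5 to 19 and the number called lower from 2 to 10, while the share of all genes ran from 16.2% to 33.7% higher and from 10.9% to 33.5% lower. When an XRN1-null library is left out, that arm holds 1 library and is assumed to vary like the WT pair, and the median SE over all genes rose from 0.0762 to 0.132 and 0.131. In those fits the folds of the 14 called members kept their direction, and calls were fewer over all genes. When a WT library is left out, the WT arm holds 1 library and the spread comes from the XRN1-null pair. Of the 14 calls, those of QARS, RARS2, KARS, IARS2, AIMP1 and EARS2 were lost when either XRN1-null library was left out, that of PARS2 without XRN1-null replicate 1 and that of EEF1E1 without XRN1-null replicate 2, while VARS2, VARS, SARS2, CARS, AARS2 and MARS2 kept theirs in all 4 cases. At an unadjusted p under 0.05, 20 of 39 members differed, beside 7066 of 10105 genes.

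**Figure D2:**
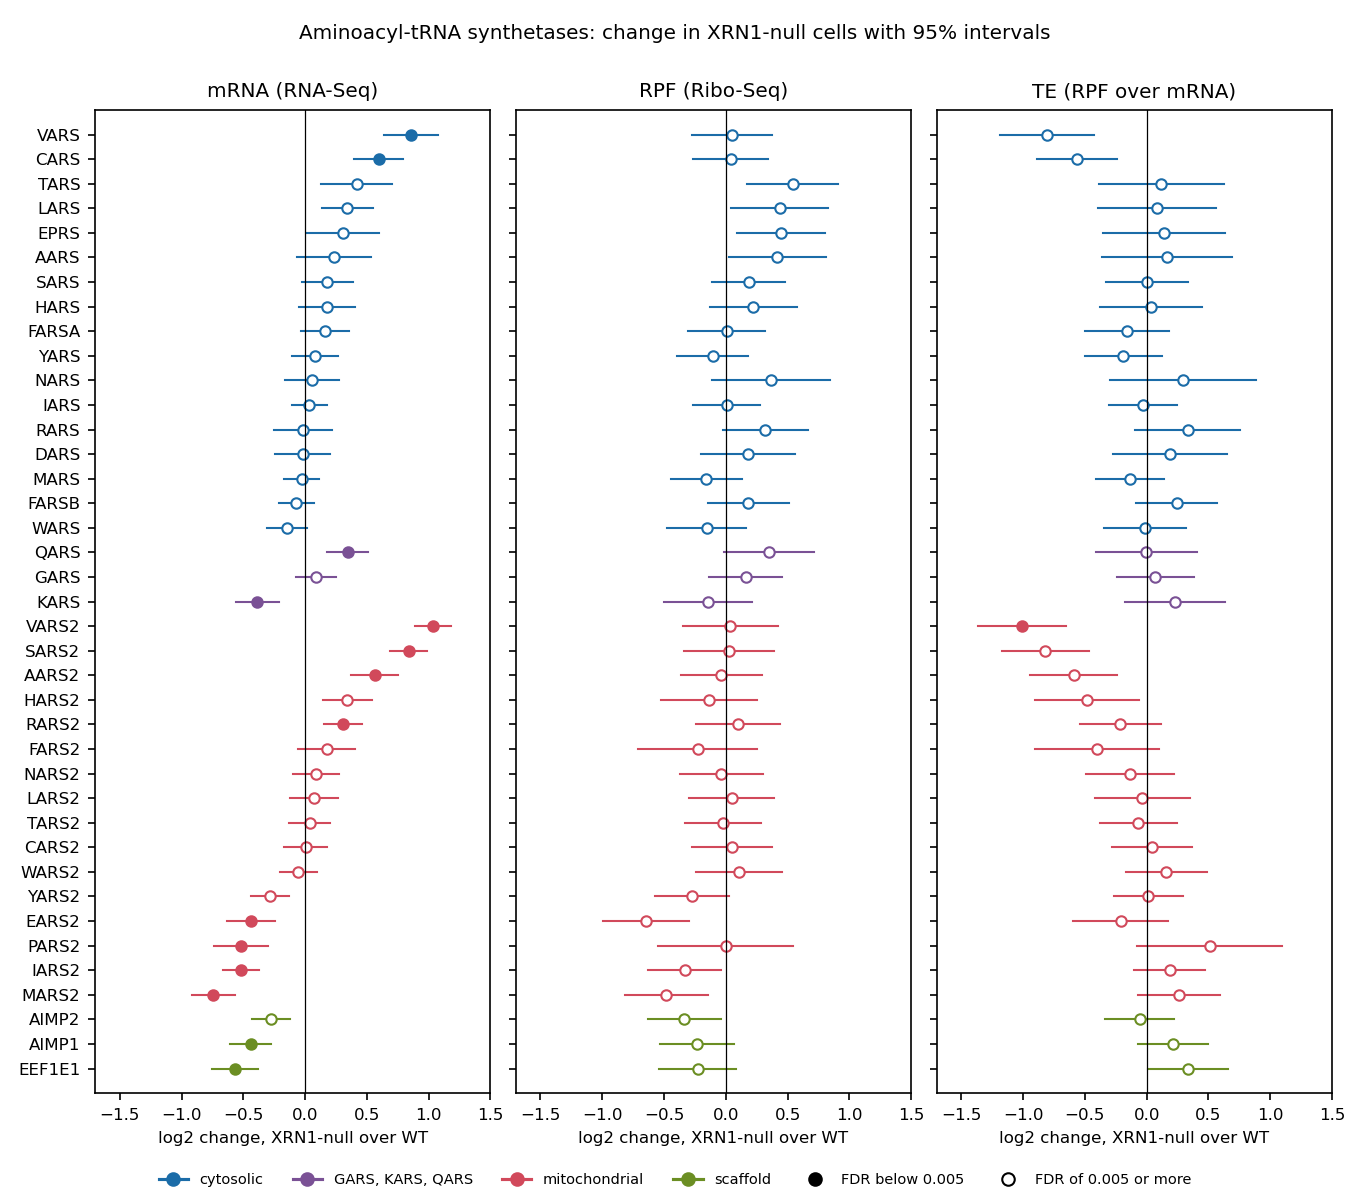
Fitted log2 change in XRN1-null over WT cells for the 39 members in mRNA, RPF and TE, with 95% intervals; filled points have an edgeR quasi-likelihood FDR below 0.005 and colours give the group of the enzyme. The 7 rises and 7 falls in mRNA have no called counterpart in RPF, and only VARS2 is called in TE.

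The largest rise was that of VARS2 (chr6:30881982-30894236 on GRCh37, plus strand, 30 exons). Its mRNA stood at 54.8 and 53.6 CPM in the 2 WT libraries and at 110.9 and 111.6 CPM in the 2 XRN1-null libraries, a log2 change of 1.04 (SE 0.06, FDR 1.47e-05). The XRN1-null libraries lay above the WT libraries, as for 4143 of 10105 genes, and the replicates of each group differed by under 2 CPM. Footprints on VARS2 were level: 21.9 and 26.0 CPM in WT and 24.6 and 25.6 CPM in XRN1-null cells, a log2 change of 0.03 with a 95% interval of -0.35 to 0.42. The interval lay below the mRNA change. The log2 TE was accordingly -1.31 and -1.03 in the WT replicates and -2.15 and -2.10 in the XRN1-null replicates, a fall by 1.01 (SE 0.16, FDR 0.0032) in the interaction of assay and genotype over the 8 libraries. VARS2 was the only member called in TE, where 1.78% of all genes were called lower and 0.0495% higher. The call was lost with the replicate block (FDR 0.006), after thinning of the mRNA counts to footprint depth (FDR 0.00529) and in 7 of 10 settings that left out a library or replicate, among them WT replicate 2 of the Ribo-Seq (log2 change -0.83, FDR 0.0431), while the direction stayed. A lncRNA without a symbol overlaps VARS2 on the same strand, and reads of the 2 cannot be told apart. Genes on the same strand also overlap the called members MARS2 (a lncRNA), EARS2 (GGA2) and EEF1E1 (a readthrough with BLOC1S5). Small RNA genes do so for VARS, CARS and IARS2. On the opposite strand, protein-coding genes overlap AARS2, EARS2, KARS and AIMP1, and lncRNAs overlap CARS. The strand setting of the counting is not given, so these may share reads too.

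VARS, its cytosolic partner (chr6:31745295-31763529 on GRCh37, minus strand, 30 exons), moved alike in mRNA. Its level was 142 and 172 CPM in WT and 284 and 283 CPM in XRN1-null cells, a log2 change of 0.85 (SE 0.09, FDR 0.000175). RPF on VARS was 152 and 179 CPM in WT against 161 and 184 CPM in XRN1-null cells, and the groups overlapped. The log2 TE, 0.10 and 0.05 in the WT replicates and -0.82 and -0.62 in the XRN1-null replicates, differed by -0.81 (SE 0.17), which missed the threshold at FDR 0.0156. Valine was the only amino acid for which both partners were called higher in mRNA.

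SARS2, the mitochondrial seryl enzyme (chr19:39405906-39421403, minus strand), rose from 33.4 and 34.9 CPM in WT to 61.0 and 61.1 CPM in XRN1-null cells, a log2 change of 0.84 (SE 0.06, FDR 3.62e-05). Its RPF values, 28.6 and 34.9 CPM in WT and 34.8 and 31.2 CPM in XRN1-null cells, were interleaved. The log2 TE difference of -0.82 (SE 0.16) came next after that of VARS2 and missed the threshold at FDR 0.0098. The TE differences of SARS2 and VARS each passed in 3 of 9 alternatives, namely DESeq2, the likelihood ratio test and the block by culture. Its cytosolic partner SARS was not called, with 192 and 228 CPM in WT and 235 and 240 CPM in XRN1-null cells. SARS2 is overlapped on its own strand by a second gene model, so part of its reads may belong there.

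AARS2, the mitochondrial alanyl enzyme (chr6:44266468-44281084, minus strand), had 65.4 and 75.0 CPM of mRNA in WT and 101.5 and 105.9 CPM in XRN1-null cells, a log2 change of 0.56 (SE 0.08, FDR 0.000629). Its RPF was 61.5 and 53.1 CPM against 57.9 and 52.1 CPM. CARS, the cytosolic cysteinyl enzyme (chr11:3022152-3078843, minus strand), had 51.3 and 60.2 CPM in WT and 84.1 and 84.3 CPM in XRN1-null cells, a log2 change of 0.60 (SE 0.08, FDR 0.000604). RPF on CARS was 67.2 and 75.1 CPM against 74.2 and 73.0 CPM. For both genes the mRNA groups were separate and the RPF groups overlapped. The TE differences, -0.59 for AARS2 (FDR 0.0457) and -0.56 for CARS (FDR 0.041), missed the threshold. Their partners AARS and CARS2 were not called in mRNA, with log2 changes of 0.24 and 0.00.

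The smallest called rises were those of QARS and of RARS2, the mitochondrial arginyl enzyme. QARS mRNA was 176 and 194 CPM in WT and 234 and 236 CPM in XRN1-null cells, a log2 change of 0.34 (SE 0.07, FDR 0.00337), and its RPF, 122 and 163 CPM in WT and 167 and 200 CPM in XRN1-null cells, had a log2 change of 0.35 that did not pass the test (95% interval -0.01 to 0.71) and ran from 0.17 to 0.60 with 1 library left out. RARS2 rose by 0.31 on the log2 scale (SE 0.07, FDR 0.00406), and its partner RARS stood at -0.02. For QARS and RARS2 the RPF interval covered the mRNA change, whereas for the other 5 risen members it lay below it.

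**Figure D3:**
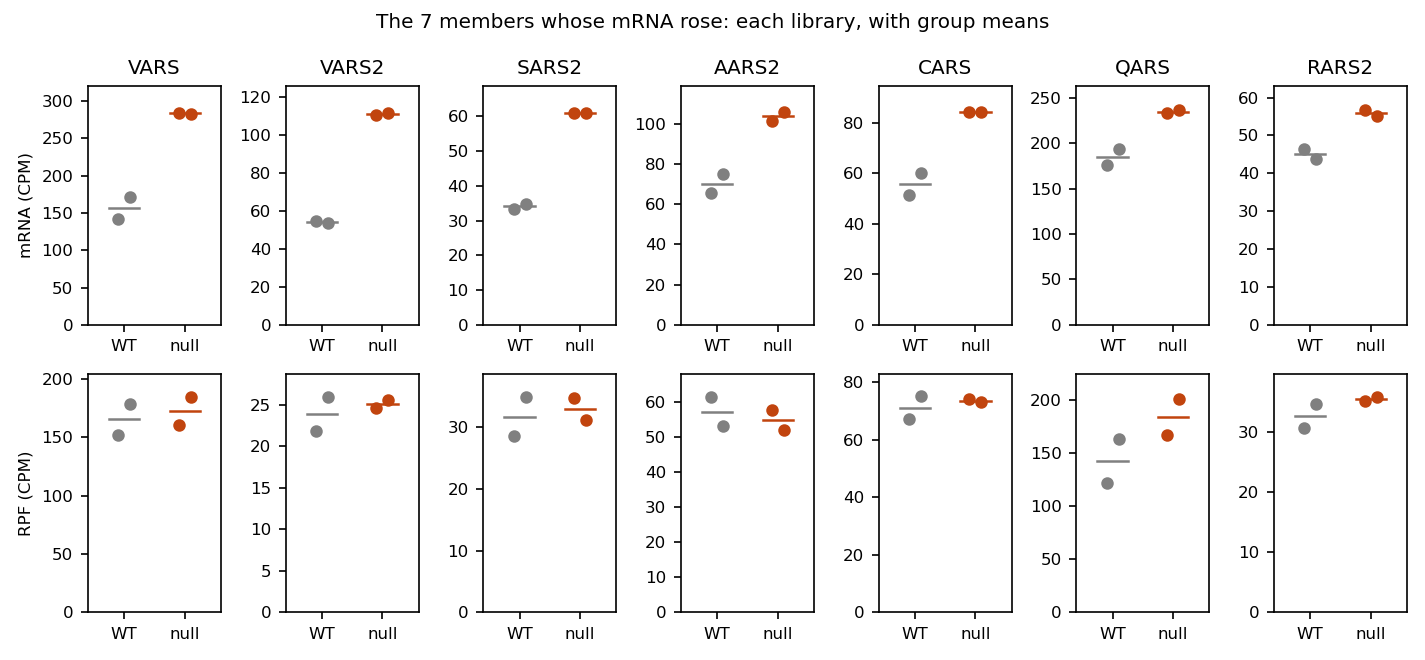
mRNA (upper row) and RPF (lower row) in CPM in each of the 2 WT and 2 XRN1-null libraries for the 7 members called higher in mRNA; bars mark group means and each panel starts at 0. The mRNA groups are separate in all 7 panels, and in RPF the groups overlap for VARS, VARS2, SARS2, AARS2 and CARS.

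Over the 7 risen members the median log2 change was 0.60 in mRNA and 0.04 in RPF, with RPF changes from -0.04 to 0.35. Over all 2313 genes called higher in mRNA the medians were 0.69 in mRNA and 0.33 in RPF. The TE change was below 0 in all 7, though for QARS it was -0.0016, and among the 2313 genes in 84.7%. Since mRNA is the denominator of TE and chose these genes, the sign of the TE change is not a separate measurement.

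The falls in mRNA were led by MARS2, the mitochondrial methionyl enzyme (chr2:198570093-198573119, plus strand), a gene of 1 exon. It had 43.2 and 45.7 CPM in WT and 27.4 and 25.8 CPM in XRN1-null cells, a log2 change of -0.74 (SE 0.07, FDR 0.000114). RPF moved the same way, from 42.7 and 41.6 CPM to 31.0 and 29.0 CPM, without overlap, yet its log2 change of -0.48 (SE 0.15) had an FDR of 0.053. MARS, the cytosolic partner, changed by -0.03 in mRNA. IARS2 (chr1:220267474-220321383, plus strand) had 342 and 350 CPM of mRNA in WT and 246 and 237 CPM in XRN1-null cells, a log2 change of -0.52 (SE 0.06, FDR 0.000259), and 295 and 300 CPM of RPF against 247 and 225 CPM. Its partner IARS changed by 0.03 in mRNA.

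PARS2 and EARS2, the mitochondrial prolyl and glutamyl enzymes, also fell, while the cytosolic EPRS that serves both amino acids had a log2 mRNA change of 0.30 (FDR 0.061). PARS2 (chr1:55222571-55230196, minus strand) had 20.5 and 21.3 CPM of mRNA in WT and 13.7 and 15.4 CPM in XRN1-null cells (log2 change -0.52, SE 0.09, FDR 0.00186), and its RPF, 9.38 and 13.8 CPM against 13.9 and 10.3 CPM, was sparse, with a 95% interval of the log2 change from -0.55 to 0.55. EARS2 (chr16:23532075-23569052, minus strand) had 65.9 and 76.7 CPM in WT and 52.7 and 52.8 CPM in XRN1-null cells (log2 change -0.44, SE 0.08, FDR 0.00253). Its RPF, 42.7 and 42.0 CPM in WT and 29.1 and 24.7 CPM in XRN1-null cells, gave the lowest RPF change of all members at -0.65 (SE 0.16, FDR 0.0212). That value passed under the likelihood ratio test at FDR 0.002.

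The 3 scaffold proteins lay below 0 in mRNA and in RPF. EEF1E1 (chr6:8073593-8102792, minus strand) had 82.8 and 73.0 CPM of mRNA in WT and 54.2 and 51.2 CPM in XRN1-null cells, a log2 change of -0.56 (SE 0.08, FDR 0.000577). AIMP1 (chr4:107236701-107270613, plus strand) had 82.9 and 76.4 CPM against 57.5 and 59.8 CPM, a log2 change of -0.44 (SE 0.07, FDR 0.000973). AIMP2 had 88.9 and 94.8 CPM against 75.1 and 76.5 CPM, and its change of -0.28 missed the threshold at FDR 0.00691 and passed with the replicate block at FDR 0.00289. In all 3 both XRN1-null libraries lay below both WT libraries in mRNA and in RPF, as they did for 4412 of 10105 genes in mRNA and for 3265 in RPF. The log2 RPF changes were -0.23, -0.23 and -0.34. KARS, a further member of the complex, had 163 and 182 CPM in WT and 133 and 132 CPM in XRN1-null cells (log2 change -0.39, SE 0.07, FDR 0.00244). The 8 enzymes of the complex had a median mRNA change of 0.01, and besides QARS and KARS none of them was called.

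Over the 7 fallen members the median log2 change was -0.52 in mRNA and -0.23 in RPF, RPF was below 0 in all 7 (PARS2 at -0.00078), and the RPF interval left out the mRNA change in 1, EEF1E1. The 2344 genes called lower had medians of -0.53 and -0.40. No member was called in RPF, where 0.633% of all genes were called higher and 1.14% lower. At an unadjusted p under 0.05 there were 8 of 39, beside 3336 of 10105 genes. The likelihood ratio test called 1 lower (EARS2), beside 5.9% of all genes, and DESeq2 called 0. The replicate block called TARS higher (FDR 0.00222) and EARS2 lower (FDR 0.00247), beside 6.1% and 6.58% of all genes. The highest RPF changes were those of the cytosolic enzymes TARS (0.54, SE 0.17, FDR 0.0499), EPRS (0.45, FDR 0.0814) and LARS (0.44, FDR 0.116).

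The RPF values of those enzymes turned on the WT replicate. TARS, the threonyl enzyme, had 247 and 361 CPM in WT and 442 and 450 CPM in XRN1-null cells. EPRS had 411 and 590 CPM against 679 and 691 CPM, and NARS, the asparaginyl enzyme, 99 and 183 CPM against 182 and 191 CPM. In each, WT replicate 1 was the lowest library and WT replicate 2 lay nearer to the XRN1-null libraries. The pattern ran through the cytosolic enzymes. From WT replicate 1 to WT replicate 2 the median log2 difference was 0.25 in mRNA, above 0 in 16 of 17, and 0.33 in RPF, above 0 in 15 of 17. The same medians between the XRN1-null replicates were 0.03 and 0.03. For the mitochondrial enzymes the WT medians were 0.09 and 0.13.

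Without WT replicate 2 of the RNA-Seq, 11 of the 17 cytosolic enzymes were called higher in mRNA and 0 lower, where 33.7% of all genes were called higher and 33.5% lower. Without WT replicate 1, 4 were called higher and 1 lower, where the shares of all genes were 31.6% and 30.8%. In Ribo-Seq, leaving out WT replicate 2 gave 8 of 17 cytosolic enzymes called higher beside 12.7% of all genes, and leaving out WT replicate 1 gave 1, TARS, beside 5.82%. The median log2 RPF change of the cytosolic enzymes was 0.38 in the first case and 0.03 in the second. In each of these fits the WT arm held 1 library and was assumed to vary like the tighter XRN1-null pair. In mRNA the median SE of a cytosolic enzyme thereby fell from 0.0879 to 0.0475 without WT replicate 2. What set WT replicate 1 apart was not tested. Of 31 genes tested from a list of the amino acid response, the program that raises many cytosolic synthetases when charged tRNA runs short, the median WT replicate difference was 0.11 in mRNA and -0.02 in RPF. It was above 0 in 26 of the 31 in mRNA and in 15 in RPF, beside 5039 and 5008 of 10105 genes. Whether this program differed between the WT replicates was not tested.

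The amino acid response acts through ATF4, which binds composite sites that can be written TGATGNAA. Promoters of 300 bases, from 250 before to 50 after the start, were available from RefSeq (GRCh38.p14) for 33 members, and not for DARS, LARS, VARS, YARS, AARS2 and VARS2. The letters TGATGNAA, searched on both strands, were in 6 of 13 cytosolic promoters (46.2%), in 1 of 14 mitochondrial promoters (7.14%), in none of the promoters of GARS, KARS, QARS and the scaffold proteins, and in 3.62% of 35116 promoters. The 7 matches are shown because all but 1 belong to cytosolic enzymes, with the match in capitals, in the direction of the gene, so that a match on the opposite strand reads TTGCATCA. The 6 cytosolic matches held the same 8 letters, or their reverse complement, and that of YARS2 differed.
AARS, chr16:70289675-70289704, minus strand: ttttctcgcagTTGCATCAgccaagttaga
CARS, chr11:3057407-3057436, minus strand: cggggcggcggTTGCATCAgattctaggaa
IARS, chr9:92293692-92293721, minus strand: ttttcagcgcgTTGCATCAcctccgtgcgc
MARS, chr12:57488053-57488082, plus strand: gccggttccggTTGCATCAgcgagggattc
NARS, chr18:57621804-57621833, minus strand: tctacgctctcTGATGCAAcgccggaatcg
TARS, chr5:33440956-33440985, plus strand: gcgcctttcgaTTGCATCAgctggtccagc
YARS2, chr12:32756076-32756105, minus strand: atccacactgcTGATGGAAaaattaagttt

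The median log2 mRNA change was 0.15 in the 6 cytosolic enzymes with the letters, with a range of -0.03 to 0.60, and 0.16 in the 7 without, with a range of -0.15 to 0.30. The median RPF changes were 0.20 and 0.18. These are values of few genes, the 4 cytosolic enzymes without a promoter here, among them VARS at 0.85, are in neither group, and the difference was not tested. Among other motifs searched, TGACGTCA, the full cAMP response element, was in the AIMP2 promoter alone of the members and in 1.85% of all promoters. GGAAGTG, a form of the ETS site, was in 2 of 13 cytosolic and 4 of 14 mitochondrial promoters against 11.2% of all, and CACGTG, the E-box, was in 1 and 3 against 7.26%. HARS and HARS2, the histidyl pair, lie on opposite strands, and in GENCODE their 5′ ends overlap with starts 107 bases apart. The RefSeq promoters use their own starts. There the 2 GGAAGTG matches have the same coordinates, so they are the same site read from both sides.
HARS, chr5:140691438-140691466, minus strand: gccagcttcggCACTTCCgggaggagccg
HARS2, chr5:140691438-140691466, plus strand: cggctcctcccGGAAGTGccgaagctggc

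HARS2 mRNA did not overlap between the genotypes, and its log2 change of 0.34 missed the threshold at FDR 0.00868 and passed with the replicate block at FDR 0.00184. HARS changed by 0.18 (FDR 0.147). The annotated transcripts of the pair overlap on opposite strands, and whether counting used strand is not given in the sources used here.

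Set against each other by amino acid, the cytosolic partner had the higher mRNA change in 8 of 17 pairs and the higher RPF change in 15 of 17. EPRS and FARS2 each stood in more than 1 of these pairs. The exceptions in RPF were cysteine and tryptophan. The median difference between partners was -0.02 in mRNA and 0.34 in RPF. The widest was that of EPRS and EARS2 in RPF, 1.09 on the log2 scale. Pairs with WT replicate 1 in the comparison carry the low cytosolic values described above: the median RPF change of the cytosolic minus that of the mitochondrial enzymes was 0.31 and 0.25 against WT replicate 1 and 0.13 and 0.14 against WT replicate 2. By fold of the catalytic domain, 5 of the 19 class I enzymes rose in mRNA and 3 fell, and of the 17 class II enzymes 2 rose and 2 fell, beside 22.9% and 23.2% of all genes. EPRS, whose 2 activities belong to different classes, was counted in class I only and was not called.

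Genes that work beside the synthetases gave no call in TE. Of the 31 amino acid response genes, 6 (19.4%) rose and 10 (32.3%) fell in mRNA, where 22.9% of all genes rose and 23.2% fell. SLC7A5, a transporter of large neutral amino acids, fell the most at -1.29 in log2 mRNA (SE 0.06, FDR 6.11e-06) and was the only gene of these lists called in RPF, at -1.17 (FDR 0.0026). MTHFD2, a mitochondrial folate enzyme, fell by 0.84 and EIF4EBP1, a repressor of translation initiation, fell by 0.69. CTH, which makes cysteine, rose by 0.68, SHMT2, a mitochondrial serine hydroxymethyltransferase, by 0.61 and DDIT3, a transcription factor of the stress response, by 0.57. DDIT3 lies on the opposite strand of MARS and overlaps it in the annotation.

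Of 16 partners of mitochondrial translation tested, 2 (12.5%) rose and 4 (25%) fell in mRNA, against the same shares of all genes, which also stand behind the counts of the next lists. PTCD3, a protein of the mitochondrial ribosome, rose by 0.88 and MTRF1L, a release factor, by 0.53. TUFM, the mitochondrial elongation factor that delivers charged tRNA, fell by 0.71, MTFMT, which formylates the initiator methionyl-tRNA made by MARS2, fell by 0.56, and C12orf65, a rescue factor of stalled mitochondrial ribosomes, fell by 0.45. GATC, a subunit of the amidotransferase that acts on the product of EARS2, had a log2 change of -0.43. Of 6 cytosolic elongation factor subunits 3 fell, EEF1B2 at -0.54, EEF1A2 at -0.50 and EEF1A1 at -0.40, and 0 rose. Of 19 genes of tRNA maturation and editing 3 rose and 3 fell, led by AARSD1, an editing protein for mischarged alanyl-tRNA, at 0.83 and ELAC1, a tRNA 3′-processing nuclease, at -1.10. POP1, a subunit of the nuclease that trims tRNA precursors, had a log2 mRNA change of 0.55, and the falls of DTD1 and TSEN15 were -0.50 and -0.49.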

How the data were processed

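HEK293T cells, WT or XRN1-null, were profiled by RNA-Seq and Ribo-Seq with 2 replicates per genotype and assay. The authors removed rRNA reads with Bowtie2, mapped the rest to hg19 with TopHat2, kept Ribo-Seq reads of selected lengths, counted reads per gene with QuasR and kept expressed genes. The deposited values are whole-number read counts of 10105 genes. The strand setting of the counting is not given in the sources used here.

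CPM were computed with TMM factors within each assay (edgeR 4.0.16, R 4.3.3), and RPKM with the gene widths of the deposited table. TE per library is log2 of RPF CPM plus 0.5 over mRNA CPM plus 0.5. Changes were tested with the edgeR quasi-likelihood test per assay, and in TE as the interaction over 8 libraries, with Benjamini-Hochberg adjustment over all genes and a call at FDR below 0.005. Intervals are 95%. On simulated data 100% of changed genes were recovered in mRNA, 86% in RPF and 85.25% in TE, with 1, 0 and 3 false calls among 10105 genes. The planted log2 changes were 1 or 2 in either direction, with the same spread for all genes of an assay. Recovery of smaller changes, such as most of those of the members, was not simulated. DESeq2 1.42.0, other scalings, filters, thresholds and left-out libraries were alternatives. The p-values measure the spread between 2 cultures per group.

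The members and lists were chosen with earlier results of these data known. Values per library are given for members called in RPF or TE, the 6 largest called rises and falls in mRNA, and the 3 highest and lowest in WT TE of each enzyme group, with partners beside them. From the wider lists, fitted changes are given for genes called in RPF or TE and up to 3 called genes each way in mRNA. RARS2, KARS, TARS, NARS, HARS2, AIMP2 and GATC were described outside that rule, after their values were seen, as were the RPF values of LARS. Positions are from GENCODE release 44 on GRCh37, with 18 members matched by an older symbol, and promoters from RefSeq on GRCh38.p14. Some genes of the wider lists are not reported here.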

Additional observations from a re-analysis of the deposited data

Results flagged for a closer look

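The change in TE of VARS2 was flagged because the effect of genotype differed between the 2 assays by a test of the difference itself, the interaction of assay and genotype (log2 change -1.01, SE 0.16, FDR 0.0032 by the edgeR quasi-likelihood test over 8 libraries). mRNA was higher in both XRN1-null libraries than in both WT libraries, and the RPF of the 2 groups overlapped. The call was lost with the replicate block (FDR 0.006), with RNA-Seq thinned (FDR 0.00529) and in 7 of 10 settings that left out a library or replicate, with the same direction in each.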

How the results depend on the processing

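The counts of members called in mRNA stayed within 1.5 times of 7 higher and 7 lower under each change of scaling, filter and test, and a required log2 change of 1 left 1 higher and 0 lower. Members called lower in TE numbered 3 with DESeq2, 3 with the likelihood ratio test, 5 at FDR below 0.05 and 0 with RNA-Seq thinned to the mean Ribo-Seq total, against 1. The share of all genes called lower in TE was 3.89% with DESeq2, 5.9% with the likelihood ratio test and 1.49% with thinning, against 1.78%. In RPF the likelihood ratio test gave 1 lower, beside 5.9% of all genes, and FDR below 0.05 gave 1 lower and 1 higher. The WT difference in TE of 0.509 became 0.417 per coding length and 0.2229 with annotated transcript length for mRNA. Leaving out 1 library moved the members called higher in mRNA to 5 to 19 and lower to 2 to 10, those in RPF to 0 to 9 higher and 0 to 3 lower, those in TE to 0 to 4 lower and 0 to 1 higher, the WT difference in TE to 0.4433 to 0.5828, and the cytosolic minus mitochondrial median TE change of 0.137 to 0.0739 to 0.3337. These ranges include the removal of a WT replicate from both assays, chosen after seeing the data, as were the length terms. VARS2 kept its direction in TE in all of these and lost the call with thinning (-1.03), with the replicate block (-0.98) and in 7 of 10 settings with a library or replicate left out.

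The replicate numbers are shared by the groups, but no label says that they mark a shared day, and with 2 pairs the deviations correlated by 0.19 in mRNA, 0.08 in RPF and 0.08 in TE between genotypes. Between mRNA and footprint libraries that share a number they correlated by 0.355 in WT and 0.0326 in XRN1-null cells. With a replicate block 10 members were called higher and 9 lower in mRNA, beside 28.3% and 27.8% of all genes. TARS, LARS and HARS2 were added to the rises and YARS2 and AIMP2 to the falls. In RPF the block called 1 member higher (TARS) and 1 lower (EARS2), beside 6.1% and 6.58% of all genes. In TE it called 0 lower, beside 1.88% of all genes. With a replicate block by culture 3 were called lower in TE, beside 4.3% of all genes. The median SE of a cytosolic enzyme was 0.0879 in mRNA and 0.15 in RPF, where totals were lower and the biological coefficient of variation was 9.84% against 6.02%; the parts of the 2 were not tested.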
